A study of Mus musculus with 10 samples.

Results

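Expression of 10 genes of lymphoid follicles was followed through mouse kidneys after ischaemia and reperfusion: the chemokines Cxcl13 and Ccl19, their receptors Cxcr5 and Ccr7, the cytokine genes Ltb, Lta and Tnfsf13b, and the B-cell genes Cd79a, Cd79b and Ms4a1. They were chosen by name, as genes of tertiary lymphoid tissue, with earlier results of these data known. All 10 were found among the 33644 genes to which the transcripts of the bulk table were summed. In lymph nodes and spleen, lymphotoxin made by lymphocytes acts on stromal cells through the lymphotoxin beta receptor and the alternative NF-kappa B pathway, and these stromal cells then secrete CXCL13 and CCL19. CXCL13 draws B cells that carry CXCR5 into follicles, CCL19 draws T cells and mature dendritic cells that carry CCR7, and BAFF, the product of Tnfsf13b, keeps B cells alive. Aggregates with the same cell types can form in chronically injured kidneys, where they are called tertiary lymphoid tissue.

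Bulk RNA was measured in 8 groups of kidneys from mice aged 8 weeks. Injury was made by tying off the renal artery of 1 kidney for 15 minutes, and the kidneys were taken 2 weeks later. The injured kidneys came from Pax8creERT2;Ihhfl/fl mice given tamoxifen (labelled as Ihh knockout), from C57/BL6 mice given tamoxifen (the wild-type tamoxifen arm) and from Pax8creERT2;Ihhfl/fl mice without tamoxifen (the floxed vehicle arm, after the VEH in its sample title). The contralateral kidneys of the same 3 arms were measured, together with C57/BL6 kidneys contralateral to a nephrectomy and kidneys of uninjured C57/BL6 mice. Pax8 is active in kidney tubule epithelium, so this tamoxifen-dependent Cre is a tool for deletion there and is not a tool for lymphocytes or stroma. Ihh encodes Indian hedgehog, and the series asked how its release from inflamed epithelia relates to fibrosis. In addition, 1 injured and 1 uninjured C57/BL6 kidney preparation, sorted for live cells by DAPI, were measured as single cells. The bulk table holds 4 numbered columns for each group, taken here as 4 libraries. Nothing in the labels says that these are separate animals, so p-values measure the spread between these libraries, which may be in part technical.

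Of the 32 bulk libraries, 3 (controls 1 and 4 and nephrectomy library 3) carried 5.85% to 5.95% of their counts in heart muscle genes and were left out, which leaves 29. Nephrectomy library 1 had 0.0614% of its counts in these genes. The 29 libraries held 0.593 M to 38 M counts, and the injured ones 18.2 M to 26.8 M. Control library 2 was the shallowest, so that a gene with 0 counts there may lie at up to 5.07 CPM (the counts-per-million scale, relative to the library total). Kidney epithelial genes took 0.697% to 2.74% of counts in injured kidneys and 2.84% to 3.36% in contralateral kidneys. Ihh itself stood at 4.58, 6.09, 5.09 and 4.86 CPM in the injured kidneys labelled Ihh-deleted, against 9.85, 5.99, 9.79 and 11.8 CPM in wild-type tamoxifen and 9.31, 11.2, 15.4 and 6.89 CPM in floxed vehicle injured kidneys. The labelled kidneys were at the low end with 1 overlap, and in their contralateral kidneys Ihh reached 17.2 CPM in library 4 against 3.44 to 8.69 CPM in the other 3. Which part of Ihh is flanked by loxP sites is not given in the sources used here.

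All 10 genes were higher in the 12 injured kidneys than in the 12 contralateral kidneys. The fitted log2 fold changes ran from 3.07 for Ms4a1 to 4.79 for Cxcl13, with a median of 3.42, against a median of 0.05 over all 17591 genes tested. Adjusted p-values come from edgeR (quasi-likelihood F tests, adjusted over all genes by the method of Benjamini and Hochberg), and a value under 0.05 is called. Injury moved most of the transcriptome, and 39% of all genes were called higher in the same comparison. In bulk tissue, fewer cells of a type and less RNA per cell cannot be told apart.

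**Figure D1:**
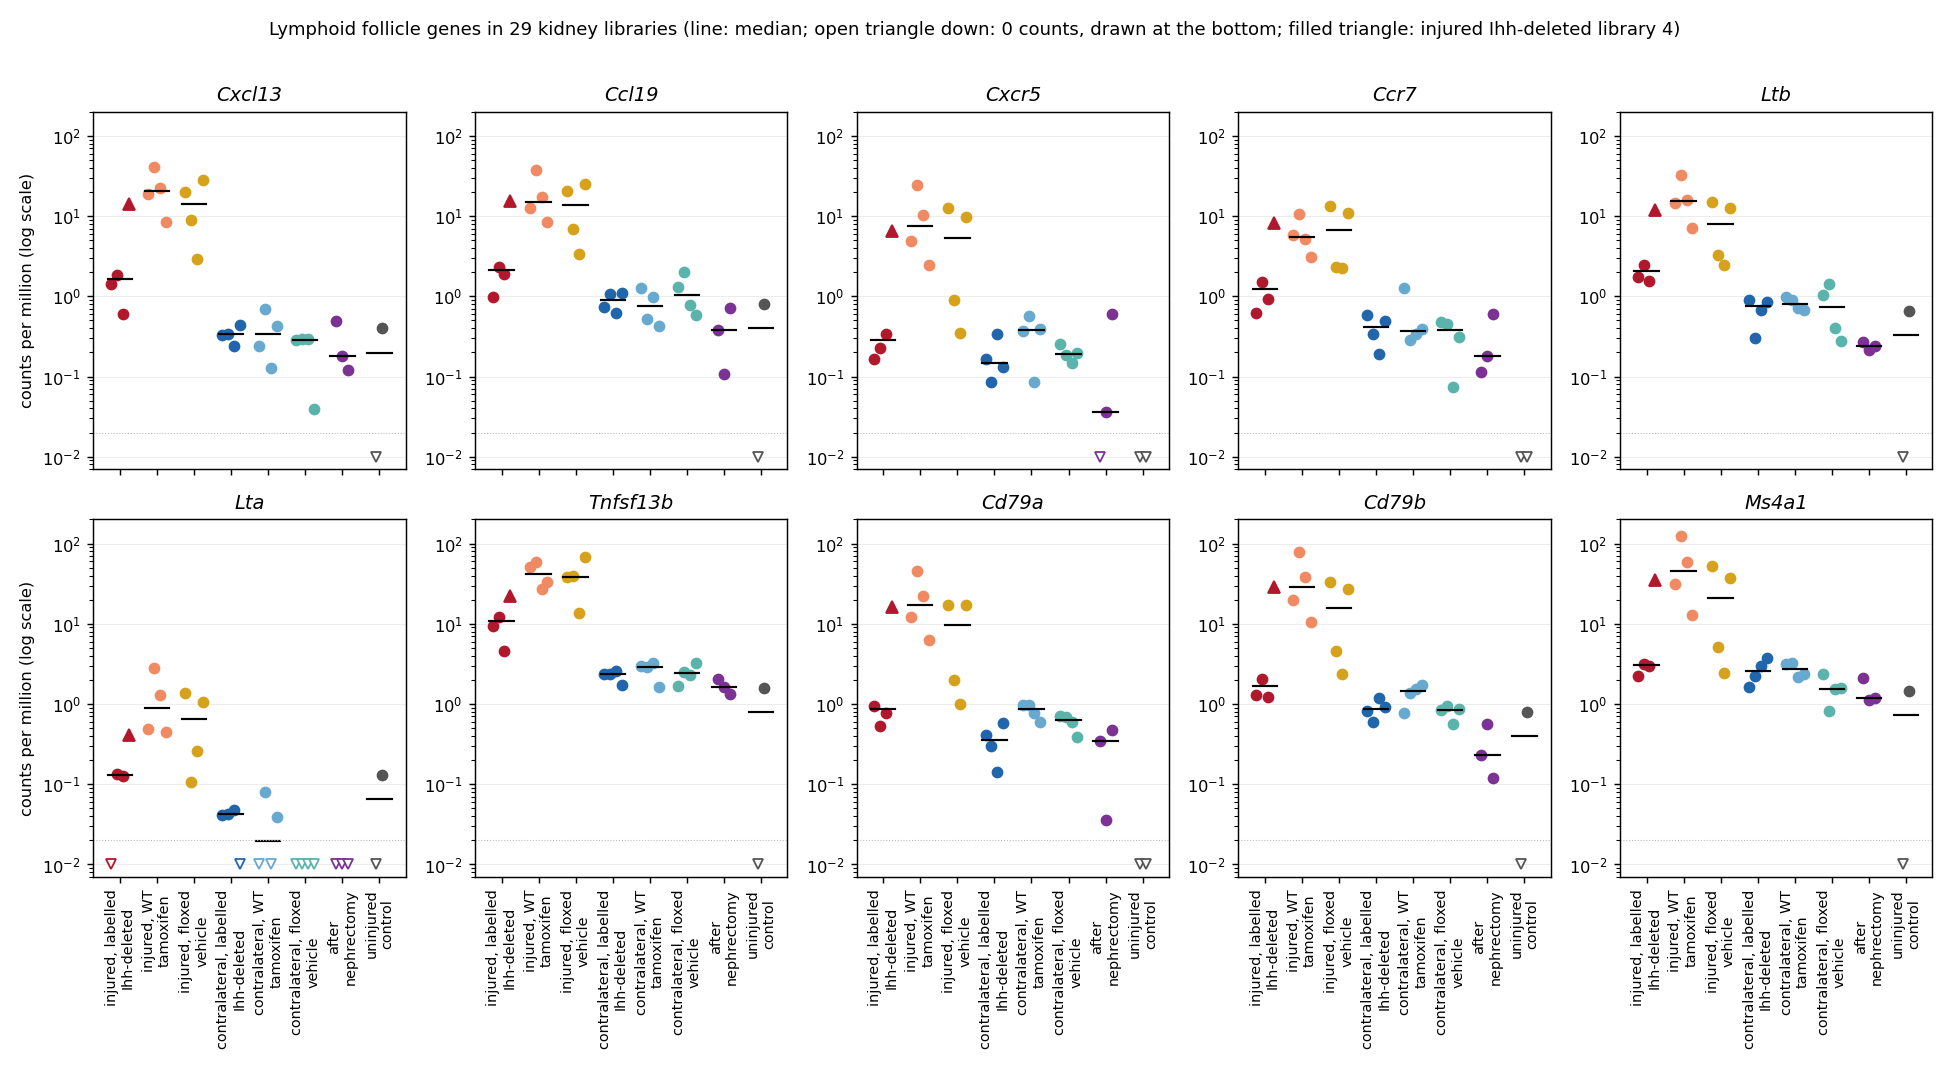
CPM on a log scale (y axis) of the 10 genes in each of 29 bulk libraries, by group (x axis); each point is a library, each line a group median, open triangles are libraries with 0 counts, and the filled triangle is library 4 of the injured kidneys labelled Ihh-deleted. The wild-type tamoxifen and floxed vehicle injured medians lie above all contralateral medians. The labelled injured median does so too, apart from Cxcr5 (0.282 against 0.379 CPM in wild-type tamoxifen contralateral kidneys) and Cd79a (0.856 against 0.867 CPM there). Single labelled libraries overlap contralateral ones in more panels. The filled triangle lies above the other 3 labelled libraries in every panel.

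Cxcl13 encodes the ligand of CXCR5. It lies on chromosome 5 at 95956951 to 95961068 of GRCm38, plus strand, and has 1 protein-coding transcript in the table. It stood at 1.44, 1.84, 0.594 and 14.3 CPM in libraries 1 to 4 of the injured kidneys labelled Ihh-deleted, at 18.7, 41.4, 22.5 and 8.32 CPM in the wild-type tamoxifen ones and at 19.8, 8.87, 2.94 and 28.0 CPM in the floxed vehicle ones. The 12 contralateral kidneys had a lowest value of 0.0393, a median of 0.293 and a highest of 0.687 CPM. Only 1 injured library, number 3 of those labelled Ihh-deleted, came down into the contralateral range. The mean was 14.1 ± 12.6 CPM in the injured libraries and 0.313 ± 0.163 CPM in the contralateral ones (SD, n = 12 each), a fitted difference of 27.7-fold (log2 4.79, SE 0.49, adjusted p = 8.33e-09).

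Because Cxcl13 changed most and is a target of the lymphotoxin pathway in mouse spleen stroma, its promoter is shown, from 250 bases before to 50 after the annotated start (RefSeq, GRCm38.p6, chr5:95956689-95956988, plus strand, 5′ to 3′). The first stretch of capitals, at -114 to -106 from the start, matches GGGANATTT, a motif of the alternative kappa B type, and the second, at -46 to -41, matches the TATA motif TATAAA.
Cxcl13: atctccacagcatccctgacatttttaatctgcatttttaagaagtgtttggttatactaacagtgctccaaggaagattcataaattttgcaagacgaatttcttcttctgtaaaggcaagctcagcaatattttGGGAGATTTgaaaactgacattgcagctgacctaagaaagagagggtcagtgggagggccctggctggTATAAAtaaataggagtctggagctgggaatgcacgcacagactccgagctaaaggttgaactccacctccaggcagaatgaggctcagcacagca
Of 32851 RefSeq promoters of this length, 1.21% held GGGANATTT on either strand and 13.6% held TATAAA. The motifs were chosen after the sequences were seen, so these shares are no test of the matches. A match of letters is a description of the window and not a measured binding site.

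Ccl19, the CCR7 ligand of T-cell zones, lies on chromosome 4 at 42754525 to 42756577, minus strand. Its level was 0.99, 2.33, 1.91 and 15.4 CPM in the injured kidneys labelled Ihh-deleted, 12.7, 37.6, 17.1 and 8.41 CPM in wild-type tamoxifen and 20.6, 6.91, 3.37 and 25 CPM in floxed vehicle ones. The contralateral kidneys ranged from 0.432 to 2.00 CPM with a median of 0.878. The order of the injured libraries was close to that of Cxcl13, and 2 labelled libraries (1 and 3) overlapped the contralateral range. Ccl19 averaged 12.7 ± 11.1 CPM in the injured libraries and 0.951 ± 0.44 CPM in the contralateral ones (SD, n = 12 each), an 8.81-fold fitted difference (log2 3.14, SE 0.43, adjusted p = 5.17e-07). Close copies of Ccl19 can share its reads: over the 29 libraries the table gave 3708.7 estimated counts to Ccl19 and 241.7 to the pseudogene Ccl19-ps1, so its level carries that uncertainty.

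Both receptors rose as well. Cxcr5, which brings B cells and follicular helper T cells towards CXCL13, stood at 0.165, 0.224, 0.339 and 6.43 CPM in the injured kidneys labelled Ihh-deleted, 4.83, 24.3, 10.4 and 2.47 CPM in wild-type tamoxifen and 12.6, 0.903, 0.346 and 9.64 CPM in floxed vehicle ones. Contralateral kidneys had 0.085 to 0.566 CPM, with a median of 0.190. Labelled libraries 1 to 3 and library 3 of the floxed vehicle kidneys lay inside that range, while the highest injured library was at 24.3 CPM. The means were 6.05 ± 7.27 CPM in the injured libraries and 0.243 ± 0.145 CPM in the contralateral ones (SD, n = 12 each; log2 fold change 3.95, SE 0.68, adjusted p = 1.56e-05).

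Ccr7, the receptor of CCL19 on naive T cells, B cells and mature dendritic cells, had 0.619, 1.52, 0.933 and 8.15 CPM in the injured kidneys labelled Ihh-deleted, 5.80, 10.5, 5.18 and 3.10 CPM in wild-type tamoxifen and 13.4, 2.34, 2.25 and 10.9 CPM in floxed vehicle ones. The contralateral values were 0.0741 to 1.26 CPM, with a median of 0.367. Labelled libraries 1 and 3 fell inside that range, which reached 1.26 CPM through 1 wild-type tamoxifen library. Ccr7 averaged 5.39 ± 4.38 CPM in the injured libraries and 0.432 ± 0.294 CPM in the contralateral ones (SD, n = 12 each; log2 fold change 3.14, SE 0.45, adjusted p = 1.31e-06).

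Ltb and Lta encode the subunits of membrane lymphotoxin, and Lta also forms the soluble homotrimer. The genes lie together on chromosome 17 of GRCm38, with Ltb at 35194439 to 35196320 on the plus strand, Tnf at 35199381 to 35202007 and Lta at 35203165 to 35205351 on the minus strand, a span of 10.9 kb. Ltb was at 1.73, 2.46, 1.57 and 11.8 CPM in the injured kidneys labelled Ihh-deleted, 14.5, 32.9, 15.9 and 7.06 CPM in wild-type tamoxifen and 15.0, 3.24, 2.47 and 12.5 CPM in floxed vehicle ones. In contralateral kidneys it ran from 0.275 to 1.42 CPM with a median of 0.782. Ltb was 1 of only 2 of the 10 genes, with Tnfsf13b, whose lowest injured library lay above the highest contralateral one, which was so for 11.2% of all genes tested. Its means were 10.1 ± 9.16 CPM in the injured libraries and 0.761 ± 0.331 CPM in the contralateral ones (SD, n = 12 each; log2 fold change 3.08, SE 0.39, adjusted p = 1.74e-07).

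Lta was the scarcest of the 10. It had 0, 0.134, 0.127 and 0.411 CPM in the injured kidneys labelled Ihh-deleted, 0.483, 2.83, 1.31 and 0.45 CPM in wild-type tamoxifen and 1.39, 0.106, 0.26 and 1.05 CPM in floxed vehicle ones. The contralateral kidneys had a median of 0 and a highest value of 0.0808 CPM, from 6 counts in all 12 libraries, against 191 counts in the 12 injured ones. In the floxed vehicle arm all 4 contralateral libraries were at 0, and with 3 counts over these libraries as the limit (0.0247 CPM) the injured mean of 0.702 CPM was at least 28.5-fold higher. The fitted log2 fold change over all arms was 4.48 (SE 0.71, adjusted p = 1.1e-05). It rests on few contralateral counts.

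The promoters of Ltb and Lta are shown next to each other because the genes share a locus and moved together. In the Ltb window (chr17:35194257-35194556, plus strand) the capitals at -86 to -78 match GGGANTTTC, a classical kappa B motif, on the opposite strand. In the Lta window (chr17:35205302-35205601, minus strand) the capitals at -167 to -162 match TATAAA.
Ltb: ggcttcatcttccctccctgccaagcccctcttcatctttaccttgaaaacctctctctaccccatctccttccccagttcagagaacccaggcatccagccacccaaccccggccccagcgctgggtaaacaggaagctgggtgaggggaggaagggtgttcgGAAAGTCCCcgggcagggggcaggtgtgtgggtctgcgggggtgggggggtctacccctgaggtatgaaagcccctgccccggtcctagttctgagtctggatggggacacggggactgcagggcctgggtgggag
Lta: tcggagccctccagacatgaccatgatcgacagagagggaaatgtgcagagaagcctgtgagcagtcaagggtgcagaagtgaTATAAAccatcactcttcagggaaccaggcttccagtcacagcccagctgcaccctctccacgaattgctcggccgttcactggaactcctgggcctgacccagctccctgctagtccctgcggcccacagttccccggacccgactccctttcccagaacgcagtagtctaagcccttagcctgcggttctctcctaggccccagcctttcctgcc
The motifs named here were also chosen after the sequences were seen, so their shares are no test. GGGANTTTC was found on either strand in 1.11% of the 32851 promoters. The octamer ATGCAAAT, bound by POU factors in B cells, was held by 1.74% of them and TCCCNNGGG, a core of the EBF motif, by 6.56%. Neither exact string stood in the windows of the 6 genes with a promoter in the table. Sites with other letters were not searched for, and Cxcr5, Ccr7, Cd79b and Ms4a1 had no window, so these genes may still hold such sites.

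Tnfsf13b was the most evenly raised of the 10. BAFF is a survival factor for B cells that is mostly made by myeloid and stromal cells. Its level was 9.28, 12.2, 4.58 and 22.5 CPM in the injured kidneys labelled Ihh-deleted, 51.3, 59.2, 27.3 and 32.9 CPM in wild-type tamoxifen and 38.2, 39.2, 13.8 and 67.4 CPM in floxed vehicle ones. Contralateral kidneys had 1.65 to 3.23 CPM with a median of 2.44. All 12 injured libraries were above all 12 contralateral ones, and the standard error was the smallest of the 10 (log2 fold change 3.09, SE 0.23, adjusted p = 1.3e-10, means 31.5 ± 20.4 CPM in the injured libraries and 2.46 ± 0.557 CPM in the contralateral ones). Of its estimated counts, 44.5% and 14.5% went to its 2 protein-coding transcripts, and the remainder to transcripts annotated as retained intron, nonsense-mediated decay or processed, so the summed level is not all coding RNA.

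Cd79a and Cd79b encode the signalling chains of the B-cell receptor, and Ms4a1 encodes CD20, which B cells lose as they become plasma cells. Cd79a stood at 0.949, 0.537, 0.763 and 16.1 CPM in the injured kidneys labelled Ihh-deleted, 12.3, 45.7, 22.0 and 6.34 CPM in wild-type tamoxifen and 17.3, 1.97, 0.995 and 17.4 CPM in floxed vehicle ones. Contralateral kidneys had 0.143 to 0.974 CPM with a median of 0.591. Labelled libraries 1 to 3 lay inside the contralateral range, and floxed vehicle library 3 just above it. The means were 11.9 ± 13.3 CPM in the injured libraries and 0.592 ± 0.252 CPM in the contralateral ones (SD, n = 12 each; log2 fold change 3.70, SE 0.57, adjusted p = 3.82e-06).

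Cd79b had 1.28, 2.06, 1.23 and 29.1 CPM in the injured kidneys labelled Ihh-deleted, 19.7, 77.8, 38 and 10.6 CPM in wild-type tamoxifen and 33.4, 4.62, 2.34 and 27.2 CPM in floxed vehicle ones. The contralateral range was 0.556 to 1.73 CPM, and the log2 fold change was 3.72 (SE 0.53, adjusted p = 8.65e-07). Ms4a1 had 2.23, 3.18, 3.01 and 34.7 CPM in the labelled, 31.6, 125, 59.0 and 12.9 CPM in the wild-type tamoxifen and 52.1, 5.10, 2.47 and 37.1 CPM in the floxed vehicle injured kidneys. Against a contralateral range of 0.817 to 3.72 CPM, labelled libraries 1 to 3 and floxed vehicle library 3 lay inside it. Its log2 fold change was 3.07 (SE 0.49, adjusted p = 5.22e-06).

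Per transcript length, on the transcripts-per-million (TPM) scale from annotated lengths, the order of mean levels in the 12 injured kidneys was Ccl19 41.2, Cd79b 39.0, Tnfsf13b 37.1, Cxcl13 28.5, Ms4a1 23.7, Ltb 19.8, Cd79a 18.7, Ccr7 6.40, Cxcr5 5.51 and Lta 1.19 TPM. The standard deviations between libraries were large beside these means, at 34.2 TPM for Ccl19, 25 TPM for Tnfsf13b and 20 TPM for Cd79a, so the first 7 do not stand apart from their neighbours in that order. Ccr7, Cxcr5 and Lta form the low end.

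Within each arm the injury difference was then read separately. In the wild-type tamoxifen arm all 10 genes were called higher, with 32% of all genes called higher there, and the 4 injured libraries lay above the 4 contralateral ones for all 10, as for 52.9% of all genes. Cxcl13 had the largest log2 fold change there (5.46, SE 0.85, adjusted p = 1.09e-05) and Ccr7 the smallest (2.98, SE 0.76, adjusted p = 0.0018). In the floxed vehicle arm all 10 were again called higher (32.6% of all genes) and did not overlap (43.4% of all genes), from Ltb at 2.81 (SE 0.66, adjusted p = 0.000779) to Cxcl13 at 5.45 (SE 0.87, adjusted p = 1.39e-05), apart from Lta, whose contralateral libraries were all at 0. In the arm labelled Ihh-deleted, 7 of 10 were called higher, against 19.3% of all genes. There the log2 fold changes were 3.46 for Cxcl13 (SE 0.82, adjusted p = 0.00323), 2.29 for Ccl19 (SE 0.73, adjusted p = 0.0196), 2.54 for Ccr7 (SE 0.78, adjusted p = 0.0161), 2.44 for Ltb (SE 0.67, adjusted p = 0.00879), 2.19 for Tnfsf13b (SE 0.40, adjusted p = 0.000313), 3.39 for Cd79a (SE 1.02, adjusted p = 0.0147) and 2.97 for Cd79b (SE 0.90, adjusted p = 0.0149).

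The genes that missed the threshold in the labelled arm were Cxcr5 (log2 3.04, SE 1.21, adjusted p = 0.0556), Lta (2.01, SE 1.18, adjusted p = 0.191) and Ms4a1 (1.78, SE 0.82, adjusted p = 0.0944). In that arm the injured and contralateral libraries did not overlap for 5 genes, Cxcl13, Ccr7, Ltb, Tnfsf13b and Cd79b, against 24.7% of all genes. The count of genes called higher in this arm rested on library 4. Without it, Tnfsf13b alone was called higher (log2 1.77, adjusted p = 0.00249, with 11.9% of all genes called higher), Cxcl13 was at 1.75 (adjusted p = 0.073) and Ms4a1 at -0.04.

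**Figure D2:**
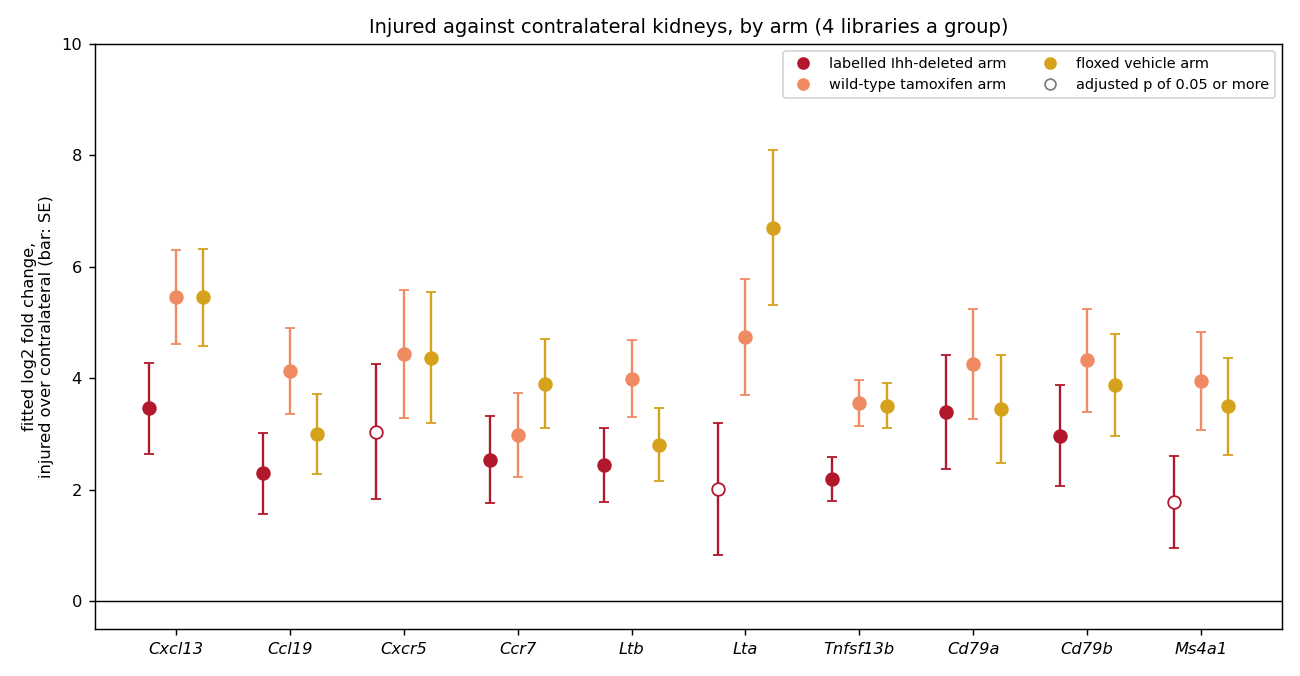
Fitted log2 fold change of injured over contralateral kidneys (y axis) for the 10 genes (x axis) in the 3 arms, with 4 libraries a group; bars are standard errors and open symbols have an adjusted p of 0.05 or more. The arm labelled Ihh-deleted has 7 filled symbols and the other arms 10 each; the floxed vehicle value of Lta is set against a group at 0 and is no bound.

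Injured kidneys were also set against uninjured controls, with less precision, since only control libraries 2 and 3 remain and both are shallow. Cxcl13 was at 0 and 0.397 CPM in these controls, and Tnfsf13b averaged 31.5 CPM in the injured and 0.795 CPM in the control libraries. Of the 10 genes, 8 were called higher in injured than in uninjured kidneys, against 19.9% of all genes, among them Tnfsf13b (log2 3.92, SE 0.72, adjusted p = 0.000385) and Cxcl13 (4.61, SE 1.53, adjusted p = 0.0206). Both controls had 0 counts of Cxcr5, Ccr7 and Cd79a. With 3 counts over both libraries pooled as the limit (0.369 CPM), the injured means were 16.4-fold above it for Cxcr5, 14.6-fold for Ccr7 and 32.2-fold for Cd79a. The pooled limit rests mostly on control 3, whose own limit was 0.397 CPM. For control 2 alone the limit was 5.07 CPM, so these folds are no lower bounds for that library. Cxcr5 (adjusted p = 0.0855) and Lta (adjusted p = 0.482) were not called. With 1 control library the count was 2 without control 2 and 1 without control 3, where the lone library is assumed to vary like the other groups.

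None of the 10 was called between contralateral and uninjured control kidneys (0.455% of all genes were) or between nephrectomy and control kidneys (0.176% of all genes), by edgeR's quasi-likelihood test, and none had an unadjusted p under 0.05 in either. In the 3 nephrectomy libraries Cxcl13 was at 0.495, 0.179 and 0.12 CPM and Tnfsf13b averaged 1.67 ± 0.369 CPM (SD, n = 3), while Lta was at 0 in all 3. These values lie within the contralateral ranges or below them. Contralateral kidneys labelled Ihh-deleted and intact contralateral kidneys had no call among the 10 either (0.00568% of all genes).

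Next, the 4 injured kidneys of the labelled arm were compared with the 8 that have intact Ihh. The labelled kidneys also differ in genotype from the wild-type tamoxifen ones and in tamoxifen from the floxed vehicle ones. Against either group alone, the deletion cannot be told apart from that other difference. Of the 10 genes, 3 were called lower and none higher, against 16.7% of all genes called lower. Tnfsf13b had the smallest adjusted p, with 12.1 CPM in the labelled and 41.2 CPM in the intact injured kidneys on average (log2 -1.53, SE 0.34, adjusted p = 0.00179). Cxcl13 averaged 4.53 CPM in the labelled and 18.8 CPM in the intact kidneys (log2 -1.83, SE 0.64, adjusted p = 0.0269), and Lta had a log2 fold change of -2.20 (SE 0.77, adjusted p = 0.0307). The groups overlapped for each of the 3 genes.

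The other 7 genes had negative values that did not pass the threshold: Cxcr5 at -1.95 (SE 0.92, adjusted p = 0.0976), Ms4a1 at -1.61 (SE 0.72, adjusted p = 0.0801), Ccl19 at -1.46 (SE 0.61, adjusted p = 0.0625), Cd79a at -1.46 (SE 0.78, adjusted p = 0.146), Cd79b at -1.40 (SE 0.73, adjusted p = 0.133), Ltb at -1.26 (SE 0.55, adjusted p = 0.073) and Ccr7 at -1.05 (SE 0.62, adjusted p = 0.186). The median of the 10 was -1.5, against -0.01 over all genes.

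The 3 calls were also made without library 4 of the labelled kidneys, and the other 7 genes were called as well once it was left out. This library had the highest level of its group in all 10 genes, and for 8 of them it stood apart from the other 3, as with Ms4a1 at 34.7 against 2.23 to 3.18 CPM. Its Ihh level of 4.86 CPM was within the range of the other 3 labelled libraries, and its share of kidney epithelial genes was 1.57%, against 1.90%, 2.11% and 2.74% in them. Without this library all 10 genes were called lower in the labelled than in the intact injured kidneys, with 21.1% of all genes called lower. The log2 fold changes then ran from -1.95 for Tnfsf13b (adjusted p = 0.000287) to -4.69 for Cxcr5 (adjusted p = 0.00141), with -3.55 for Cxcl13 (adjusted p = 0.000213) and -3.95 for Cd79a (adjusted p = 0.000649). Nothing in the labels sets the library apart, so the values with all 4 libraries stand as the result. Why it differs is not known from the labels, and every value of the injured kidneys labelled Ihh-deleted carries that doubt.

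The 2 intact groups were also taken one at a time. Against wild-type tamoxifen injured kidneys 5 of the 10 genes were called lower in the labelled ones, against 18.1% of all genes: Lta (log2 -2.61, SE 0.83, adjusted p = 0.0184), Ms4a1 (-2.21, SE 0.80, adjusted p = 0.0316), Cxcl13 (-2.13, SE 0.70, adjusted p = 0.0191), Ltb (-1.79, SE 0.62, adjusted p = 0.0245) and Tnfsf13b (-1.58, SE 0.37, adjusted p = 0.00255). For Lta and Tnfsf13b the labelled libraries all lay below the wild-type tamoxifen ones, as for 28.3% of all genes. Against floxed vehicle injured kidneys, which have the same genotype without tamoxifen, only Tnfsf13b was called lower (-1.49, SE 0.37, adjusted p = 0.014, 7.31% of all genes called lower), and Cxcl13 was at -1.54 (SE 0.69, adjusted p = 0.119). Without library 4 these counts were 10 (21.5% of all genes) and 9 (15.1% of all genes). The comparisons share the labelled libraries and are not independent.

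Leaving out other single libraries moved the counts as well. Against both intact groups the count was 1 without labelled library 1, 2 or 3, without wild-type tamoxifen library 2 or without floxed vehicle library 4, and it was 5 and 6 without wild-type tamoxifen library 4 and floxed vehicle library 3. Against wild-type tamoxifen kidneys it was 2 without labelled library 1 or 2, 1 without labelled library 3 or wild-type tamoxifen library 2, and 9 without wild-type tamoxifen library 4. Against floxed vehicle kidneys it was 0 without labelled library 3 or floxed vehicle library 4, and 2 without floxed vehicle library 3.

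**Figure D3:**
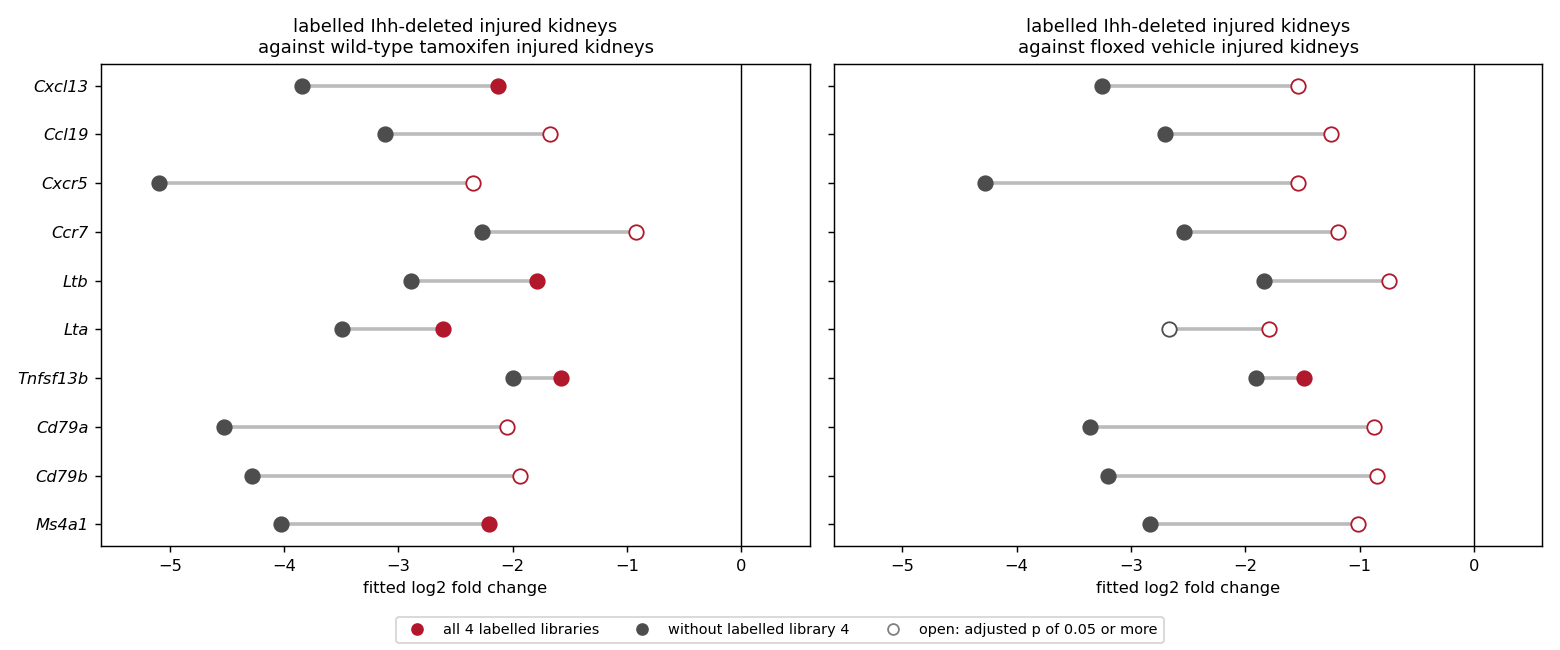
Fitted log2 fold change (x axis) of injured kidneys labelled Ihh-deleted over wild-type tamoxifen (left) and floxed vehicle (right) injured kidneys for the 10 genes (y axis), with all 4 labelled libraries (red) and without library 4 (grey); open symbols have an adjusted p of 0.05 or more. Leaving out library 4 moves every gene further below 0, and moves Tnfsf13b least.

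The test of whether injury raised the genes less in the labelled than in the intact arms found none of the 10 by edgeR's quasi-likelihood test, against 16.1% of all genes called in either direction. The log2 difference of the injury effects was -1.34 for Tnfsf13b (SE 0.47, unadjusted p = 0.00913, adjusted p = 0.0533) and -1.99 for Cxcl13 (SE 1.01, adjusted p = 0.166), and 2 genes, Tnfsf13b and Lta, had an unadjusted p under 0.05. DESeq2 called 1 of the 10. Without labelled library 4 the test called 8 lower (12.3% of all genes), and the exceptions were Ccr7 (adjusted p = 0.0544) and Lta (adjusted p = 0.0678).

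Between the intact injured groups, floxed vehicle against wild-type tamoxifen, no gene of the 10 was called (2.23% of all genes were), and none had an unadjusted p under 0.05. The log2 fold changes ran from -1.21 for Ms4a1 (SE 0.77) through -0.60 for Cxcl13 (SE 0.67) and -0.09 for Tnfsf13b (SE 0.36) to 0.27 for Ccr7 (SE 0.68). Within the floxed vehicle group, libraries 2 and 3 were low and libraries 1 and 4 high for Cxcr5, Ccr7, Ltb and the B-cell genes, among kidneys whose Ihh was not deleted.

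Across the 12 injured libraries, the levels of the genes varied together. On the log2 scale Cxcl13 correlated with Ccl19 at r = 0.95 (rho = 0.97), with Cd79b at 0.95 (0.93), with Ltb at 0.93 (0.91), with Cxcr5 at 0.93 (0.92), with Cd79a at 0.93 (0.92), with Tnfsf13b at 0.93 (0.88), with Ms4a1 at 0.91 (0.89), with Ccr7 at 0.90 (0.89) and with Lta at 0.83 (0.84). These 9 relations were tested with 100000 permutations each, which cannot give a p under 1e-05, and the adjusted p of r ran from 3e-05 to 0.00087 and that of rho from 9e-05 to 0.0012. Without the 2 libraries farthest from the median of Cxcl13, labelled libraries 3 and 1, r ran from 0.81 for Lta to 0.98 for Ccl19. Taken within arms, by deviations from the arm means and permuting within arms, r was 0.92 for Ccl19 (adjusted p = 0.0027), 0.96 for Cd79b (adjusted p = 0.00198), 0.87 for Tnfsf13b (adjusted p = 0.00343) and 0.70 for Lta (adjusted p = 0.0238). The 12 points share library depth and tissue makeup between genes.

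**Figure D4:**
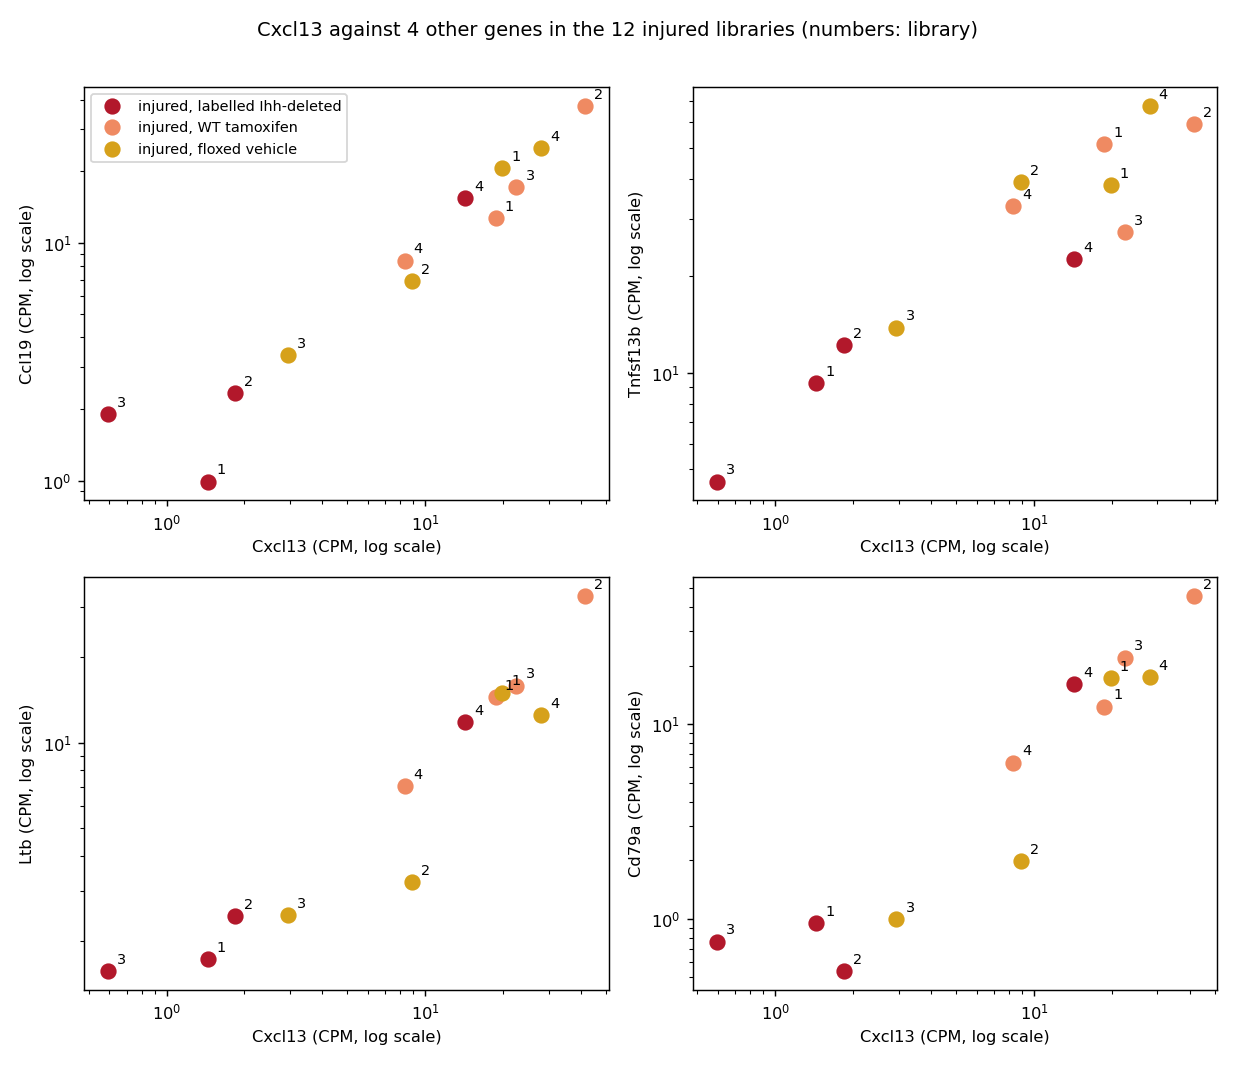
Levels of Ccl19, Tnfsf13b, Ltb and Cd79a (y axes, CPM, log scale) against Cxcl13 (x axes, CPM, log scale) in the 12 injured libraries, numbered within their group. The points climb together, library 4 of the kidneys labelled Ihh-deleted lies among the intact ones, and libraries 1 to 3 lie at the low end with floxed vehicle library 3.

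Of 15230 genes with a mean of at least 1 CPM, those with a pattern most like Cxcl13 over the 12 injured libraries, within arms, were Syk, Irf4, Rubcnl, Ggta1 and Ptpn22, each at r = 0.99. Those most like Cd79a were H2-Eb2, Siglecg, Cdh17, Blk and Cd3d, also at 0.99 each. Among the other 8 of the 10 genes that reach that mean, which leaves out Lta, Cd79a was nearest to Cxcr5 (0.99) and farthest from Tnfsf13b (0.70). These correlations are descriptions over 12 libraries of shared tissue.

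The other genes of the pathway were read from lists by role, which were also chosen with earlier results of these data known. Of all genes, 39% were called higher in injured than in contralateral kidneys. In the signalling list of the lymphotoxin receptor and the alternative NF-kappa B pathway, 10 of 12 tested genes rose in injured kidneys and 2 fell, with a median log2 fold change of 1.46, against 0.05 over all genes. Among them were Relb, a subunit of the alternative pathway (2.32, SE 0.17, adjusted p = 6.64e-11), Birc3, a ubiquitin ligase of TNF receptor signalling (2.08, SE 0.13, adjusted p = 5.96e-12) and Tnfrsf1b, a receptor for TNF and soluble lymphotoxin (2.58, SE 0.21, adjusted p = 3.31e-10). All 4 further BAFF and APRIL genes rose, led by the BAFF receptor Tnfrsf13c (4.27, SE 0.66, adjusted p = 3.7e-06). Of 13 genes for lymphoid chemokines, receptors and migration, 9 rose and 3 fell, with Cxcl9, a ligand of CXCR3, at 3.38 (SE 0.54, adjusted p = 5.23e-06) and Cxcr4, the receptor of CXCL12, at 2.86 (SE 0.26, adjusted p = 1.59e-09).

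Against the same 39% of all genes, all 17 other B-cell genes tested rose (median 3.46), among them the co-receptor gene Cd22 at 4.59 (SE 0.58, adjusted p = 1.76e-07). Of 11 genes of germinal centres and follicular helper T cells 10 rose, including Il21, a cytokine of helper T cells (6.11, SE 1.17, adjusted p = 0.000115), and Pdcd1, which encodes PD-1 (5.16, SE 0.43, adjusted p = 5.57e-10). All 8 tested genes of the list of follicular stroma and lymphoid organisers rose, with the adhesion molecule gene Vcam1 at 3.12 (SE 0.22, adjusted p = 3.53e-11). So did 4 of 4 tested genes of high endothelial venules, 7 of 7 plasma-cell genes, 12 of 12 T-cell genes and 7 of 7 genes of mature dendritic cells. The lists are named by role, and bulk RNA does not show which cells carried these genes. Glycam1 and Madcam1, which mark high endothelial venules of lymph nodes, stayed near 0 and were not tested.

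The summed level of the B-cell list ranged from 78.1 to 434 CPM in the injured kidneys labelled Ihh-deleted, 246 to 1110 CPM in wild-type tamoxifen, 136 to 540 CPM in floxed vehicle and 40.7 to 79.2 CPM in contralateral kidneys. That of the T-cell list ranged from 24.6 to 329 CPM in the injured libraries and 7.67 to 15.5 CPM in the contralateral ones. Tissue around the kidney was checked with markers of fat and adrenal cortex. The 6 fat genes summed to 12.8 to 273 CPM in the injured libraries and 15.4 to 128 CPM in the contralateral ones, with Cfd (log2 2.00, adjusted p = 0.0363) and Retn (1.78, adjusted p = 0.0373) called higher, and the 4 adrenal genes to 2.69 to 5.31 CPM in the injured libraries and 0.738 to 2.59 CPM in the contralateral ones. The 1 adrenal gene with enough counts to test, Star, was called higher too (log2 0.65, SE 0.17, adjusted p = 0.00111). Their part in the results was not tested.

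In injured kidneys labelled Ihh-deleted against intact ones, 4 of the 17 other B-cell genes were called lower and none higher, against 16.7% of all genes called lower, with Cd72, an inhibitory surface protein, at -1.59 (SE 0.35, adjusted p = 0.0017) and Btk, a kinase of B-cell receptor signalling, at -1.40 (SE 0.46, adjusted p = 0.0205). Of the mature dendritic-cell genes 6 of 7 were lower, among them the chemokine Ccl22 (-1.85), and of the T-cell genes 4 of 12. The signalling list had 3 lower and 1 higher of 12, the chemokine list 3 lower and 1 higher of 13 and the germinal centre list 2 lower of 11. The stroma and organiser list had 2 lower of 8, the plasma-cell list 1 lower of 7 and the BAFF and APRIL list 1 lower of 4. Several of these counts are near the share over all genes. No gene of the venule, fat or adrenal lists was called. The higher gene of the chemokine list was Cyp7b1 (2.17, SE 0.17, adjusted p = 3e-08), an enzyme that makes the oxysterol ligand of GPR183, while the receptor gene Gpr183 itself was lower (-1.73, SE 0.49, adjusted p = 0.00895). GPR183 guides B cells within lymphoid tissue.

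The single-cell libraries show which cells carried the RNA. The injured library had 3063 barcodes with a median of 2014 unique molecular identifiers (UMIs) and the uninjured one 1313 with a median of 2391, and 8 barcodes were shared by both. With 1 library per condition there is no test, and intervals are exact 95% intervals for counting error only. Cells were clustered without the 10 genes and named by markers, after 51 injured and 2 uninjured barcodes had been called doublets and left out. B cell-like cells were 308 (10.2%, interval 9.17% to 11.4%) of the injured and 3 (0.229%) of the uninjured cells, and T cell-like cells 324 (10.8%) of the injured and 10 (0.763%) of the uninjured cells. The uninjured library was 79.7% proximal tubule-like, against 30% of the injured one, and shares also depend on which cells survived digestion and sorting.

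On the CPM scale of the whole library, Ltb stood at 313 CPM in the injured and 7.16 in the uninjured library, and Cd79a at 174 in the injured and 2.22 in the uninjured one. Ms4a1 was at 139 in the injured and 3.70 in the uninjured library, and Cd79b at 135 in the injured and 3.70 in the uninjured one. Ccr7 had 104 UMIs in the injured and 4 in the uninjured library. The other 5 genes had no row in the uninjured table, and in the injured library Cxcl13 had 10 UMIs, Ccl19 6, Cxcr5 50, Lta 28 and Tnfsf13b 94. The B-cell genes and Ltb were thus well sampled, and the chemokine genes were not.

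Ms4a1, Cd79a and Cxcr5 were held mostly by B cell-like cells in the injured library, with 1010 of 1062 UMIs (95.1%), 1107 of 1311 (84.4%) and 43 of 49 (87.8%). Cd79b had 819 of 1024 (80%) there. Plasma cell-like cells held 170 Cd79a and 136 Cd79b UMIs but only 18 of Ms4a1. Among the 308 B cell-like cells, 94.2% had a Cd79a UMI, 85.1% one of Ms4a1 and 84.7% one of Cd79b, and 214 (69.5%) had all 3, at a median of 1567 UMIs. In proximal tubule-like cells, which should lack these genes, the shares were 0.664%, 0.775% and 0.775% at a median depth of 2028 UMIs. Of the B cell-like cells 12.3% had a Cxcr5 and 13.3% a Ccr7 UMI.

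Cd79b was also seen outside the B lineage. Of 327 macrophage or monocyte-like cells 35 (10.7%, interval 7.57% to 14.6%) had a Cd79b UMI, 40 UMIs in all, while Cd79a had 3 UMIs in 0.917% of them. The Cd79b share lies above that in proximal tubule-like cells (0.775%) at a like depth of 2080 UMIs per cell, and the Cd79a share does not stand apart from its own background.

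Ltb was shared between lymphocyte classes, with 1164 of 2359 UMIs (49.3%) in B cell-like and 844 (35.8%) in T cell-like cells, and 213 in dendritic cell-like cells. It was detected in 91.6% of B cell-like and 80.9% of T cell-like cells, against 1.99% of proximal tubule-like cells. Lta had 15 of 28 UMIs in B cell-like and 10 in T cell-like cells, the same classes. Ccr7 was split between B cell-like (44 of 102 UMIs), dendritic cell-like (42) and T cell-like cells (14), and of the dendritic UMIs 39 came from 8 cells of 1 cluster.

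Tnfsf13b had another source. Macrophage or monocyte-like cells held 53 of its 91 UMIs (58.2%), with a UMI in 14.7% of them, and fibroblast or mural-like cells held 21, all in 1 cluster where 14 of 43 cells had one. B cell-like and T cell-like cells held 3 each. Proximal tubule-like cells, the largest class, had 2 UMIs in 903 cells.

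The chemokines were rare. Cxcl13 UMIs were found in 4 cells of the injured library, 3 of them macrophage or monocyte-like with 5 UMIs, and 1 called a doublet with the other 5. All 4 cells had C1qa, a macrophage complement gene, at 7 to 35 UMIs and none had Col1a1, Dcn, Cd79a or Cd3e. None of the 104 fibroblast or mural-like cells had a Cxcl13 UMI (exact interval up to 3.48%). Ccl19 was found with 1 UMI each in 5 fibroblast or mural-like cells, all in 1 cluster and all with Dcn, and in 1 macrophage or monocyte-like cell. With 10 and 6 UMIs these counts name cells that carried the RNA and give no share of the tissue's output.

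**Figure D5:**
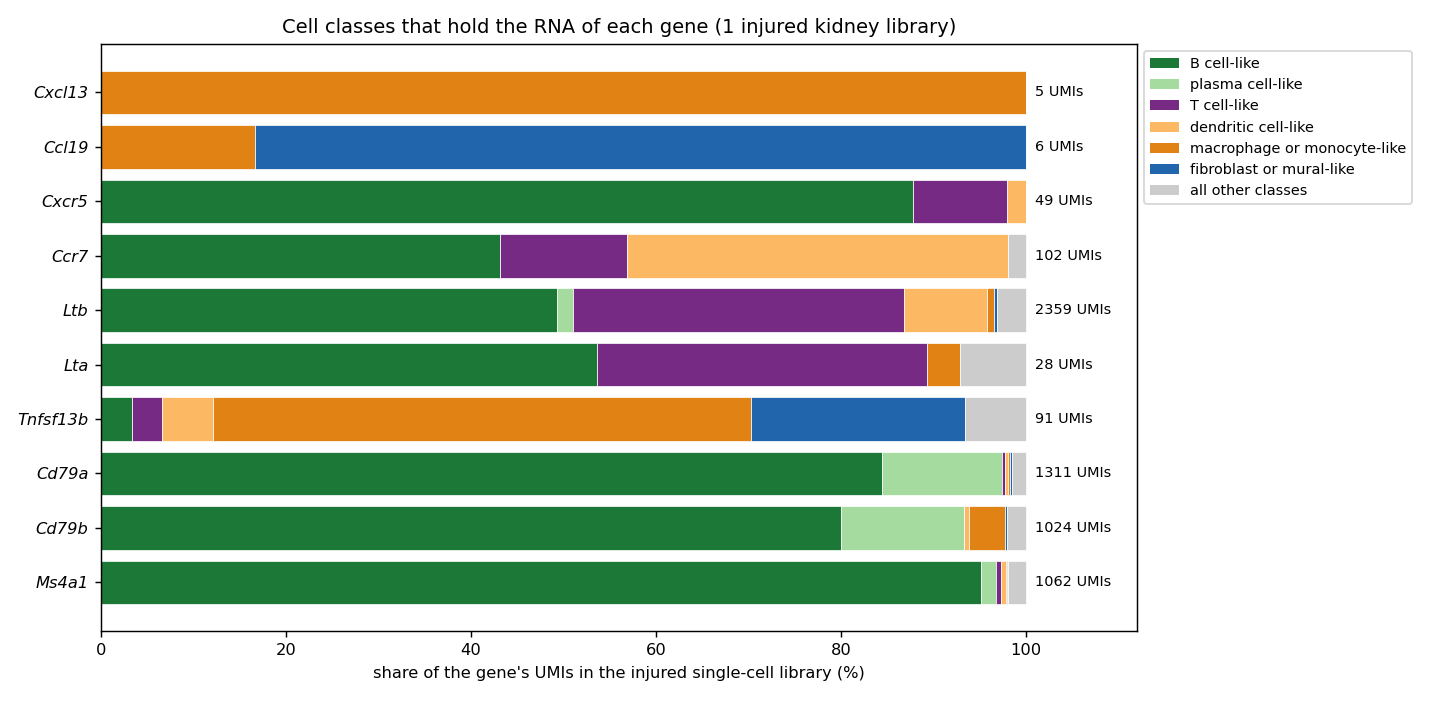
Share of each gene's UMIs by cell class (x axis, percent) for the 10 genes (y axis) in the injured single-cell library, with the number of UMIs in named and unnamed classes at the right. B cell-like cells lead for Cxcr5, Cd79a, Cd79b and Ms4a1, B and T cell-like cells share Ltb and Lta, macrophage or monocyte-like cells lead for Tnfsf13b, and the bars of Cxcl13 and Ccl19 rest on 5 and 6 UMIs.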

How the data were processed

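Bulk values are expected counts per transcript, which the authors deposited and made with Salmon 1.4, per the submitters' processing notes, which also name GRCm38 and mm10; which index and options were used is not given in the sources used here. Of the positive values 83.2% were not whole. The single-cell tables are UMI counts deposited by the authors, made with Cell Ranger and STAR per those notes, from 10x 3' libraries of DAPI-sorted live cells per the labels.

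Transcripts were matched to GENCODE M21 (105203 of 105833; the other 630 held 0.213% of counts) and summed to 33644 genes, and the sums were rounded. CPM used library totals. The 3 heart-profile libraries were left out. Tests used edgeR 4.0.16 (R 4.3.3), after filterByExpr and TMM scaling, with a coefficient for each of the 8 groups, quasi-likelihood F tests and Benjamini-Hochberg adjustment over 17591 genes, with contrasts that weight arms equally. Standard errors are the log2 fold change divided by the square root of F. Correlations used log2 CPM with a prior count of 2. DESeq2 1.42.0, other size factors, no filter, all 32 libraries, the 24 injury libraries alone, a block by column number and each library left out were alternatives. The tests were checked on simulated counts.

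The labels give no pairing, and column numbers were not used as pairs in the main tests. Same-numbered injured and contralateral libraries correlated at -0.21 to 0.18 over 12 pairs, and 6 of them were over 0.1. Such low values cannot decide whether same-numbered libraries come from the same mouse.

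Cells were clustered with scanpy 1.11.5 (2000 variable genes without the 10 genes, 30 components, 15 neighbours, Leiden resolution 1.0) after Scrublet doublet calls in each library. A cluster took the name of the marker list with the highest score, the mean log2 excess over the other clusters. That score had to be at least 2, with at least 3 markers each seen in at least 10% of the cluster's cells. Clusters without a name are kept as unnamed.

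The 10 genes and the lists were chosen with earlier results of these data known. Named list genes are among those with the largest called fold changes of each list (some are not reported here), and promoter motifs were chosen after the sequences were seen. Promoters were found for 6 of the 10 genes.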

Additional observations from a re-analysis of the deposited data

Results flagged for a closer look

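Library 4 of the injured kidneys labelled Ihh-deleted stood far above the other 3 of its group, by Dixon's ratio at the 95% level, in 8 of the 10 genes. Its values were 14.3 CPM for Cxcl13, 15.4 for Ccl19, 6.43 for Cxcr5, 8.15 for Ccr7, 11.8 for Ltb, 16.1 for Cd79a, 29.1 for Cd79b and 34.7 for Ms4a1. Lta and Tnfsf13b were highest in that library too, without passing that ratio. Chance alone sets apart about 1 in 20 groups, and 11 of the 60 checked were set apart, 8 of them through this library, whose genes move together and are not independent checks.

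The other 3 were single contralateral libraries: Cxcl13 at 0.0393 CPM in library 4 of the floxed vehicle arm, Ccr7 at 1.26 CPM in library 1 of the wild-type tamoxifen arm and Lta at 0 CPM in library 4 of the arm labelled Ihh-deleted. A count of 3 came to 0.118 CPM in that floxed vehicle library and to 0.133 CPM in that labelled one, so these values of Cxcl13 and Lta lie below this limit.

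The 3 heart-profile libraries, used in no main comparison, had higher measured Cxcl13, Ccl19 and Tnfsf13b than the shallow kidney-profile controls. Control 2 had 0 counts of these genes and a limit of 5.07 CPM, so it cannot show a difference for most of these values. The comparison rests mainly on control 3, at 0.397 CPM of Cxcl13, 0.795 CPM of Ccl19 and 1.59 CPM of Tnfsf13b. Cxcl13 was at 7.63 CPM in nephrectomy library 3 and at 3.0 and 1.87 CPM in controls 1 and 4, Ccl19 at 1.5 CPM in nephrectomy library 3 and at 0.931 and 1.22 CPM in those controls, and Tnfsf13b at 5.1 CPM in nephrectomy library 3 and at 3.96 and 3.62 CPM in those controls. The kidney-profile controls had 0 and 0.397 CPM of Cxcl13. These Ccl19 values lie within the contralateral range of 0.432 to 2.00 CPM. B-cell genes were counted in the heart-profile libraries too, with Ms4a1 at 2.67 and 1.28 CPM in controls 1 and 4 and at 1.36 CPM in nephrectomy library 3.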

How the results depend on the processing

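The 10 calls of injured over contralateral kidneys, and those in the wild-type tamoxifen and floxed vehicle arms, were made under every alternative run, and so was the correlation of Cxcl13 with each other gene. Counts of called genes that moved, by setting, were as follows, and the cause was not tested. For the kidneys labelled Ihh-deleted against both intact groups (3 of 10) the count was 5 with DESeq2, 1 with all 32 libraries and 5 with the replicate block. Against wild-type tamoxifen kidneys (5 of 10) it was 1 with all 32 libraries and 9 with the block, and against floxed vehicle kidneys (1 of 10) it was 0 with all 32 libraries. For the difference of the injury effects (0 of 10) it was 1 with other size factors, 1 with DESeq2 and 1 with the block. For injured against uninjured kidneys (8 of 10) it was 2 with the block, and for contralateral against uninjured kidneys (0 of 10) 1 with all 32 libraries.

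With each library left out in turn, the counts ran from 1 to 8 for injury in the arm labelled Ihh-deleted, 1 to 10 for that arm against both intact groups, 1 to 10 against wild-type tamoxifen, 0 to 9 against floxed vehicle, 0 to 8 for the difference of the injury effects and 1 to 8 for injured against uninjured kidneys. The difference gave 1 without wild-type tamoxifen library 3 or 4 or floxed vehicle library 3. Signs of single genes turned in few cases. Ms4a1 in the labelled arm ran from -0.04 to 2.11, and for floxed vehicle over wild-type tamoxifen injured kidneys Ccl19 ran from -0.79 to 0.15, Cxcr5 from -1.59 to 0.02, Ccr7 from -0.28 to 0.66 and Tnfsf13b from -0.41 to 0.18. In the last comparison Ccr7 was at -0.13 with the replicate block and 0.27 without it. The block changed other calls only as counted above, and the numbers share no stated source. For 5 of 12 injured libraries, the same-numbered contralateral library was the best match within the arm.

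With each cell thinned to 1000 UMIs, B cell-like cells held 94.9% of Cd79a, 89.3% of Cd79b and 98.2% of Ms4a1 UMIs. Fibroblast or mural-like cells then held 100% of Ccl19 UMIs, but only 2 of these cells still had one, so that share says little.

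Depth limits Lta, the contralateral values and both controls most. The control with 0.593 M counts cannot show a gene under 5.07 CPM, and 1 single-cell library per condition allows no test.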

Other observations

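In the injured single-cell library, receptors of the follicle cytokines sat in part in other classes than their ligands. Tnfrsf13c, the BAFF receptor gene, had 205 UMIs in B cell-like cells, where 146 of 308 cells had one. Tnfrsf13b, of the BAFF and APRIL list, had 106 UMIs in B cell-like cells. It also had 36 in dendritic cell-like and 24 in macrophage or monocyte-like cells, the class that led for Tnfsf13b. Ltbr, which encodes the lymphotoxin beta receptor, was spread over non-lymphoid classes, with 28 UMIs in endothelial-like, 13 in fibroblast or mural-like and 48 in the more numerous proximal tubule-like cells. Dendritic cell-like cells, which held 213 Ltb UMIs, had 14 of Ltbr. Ccl21a, the other CCR7 ligand gene, had 106 UMIs in just 2 endothelial-like cells. Tnfsf11, an organiser of lymphoid tissue, had 25 UMIs in 15 T cell-like cells. With 1 library there is no test of these differences.

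Set against wild-type tamoxifen injured kidneys alone, the injured kidneys labelled Ihh-deleted had lower RNA of 10 of 17 other B-cell genes, 7 of 12 T-cell genes, 6 of 7 mature dendritic-cell genes and 3 of 4 further BAFF and APRIL genes, against 18.1% of all genes called lower. Among these, Tnfrsf13c had a log2 fold change of -2.94 (SE 0.95, adjusted p = 0.0176). Sele, the endothelial adhesion gene E-selectin, went the other way (1.70, SE 0.36, adjusted p = 0.00132), while Fut7, an enzyme that makes selectin ligands on leukocytes and venules, was lower (-2.19, SE 0.83, adjusted p = 0.0427). No gene of the fat or adrenal lists was called in that comparison.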
